A study of Homo sapiens with 8 samples.

Results

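Metallothioneins, their zinc-sensing regulator MTF1 and the zinc exporter SLC30A1 were examined in CAKI1, a line of human renal carcinoma cells, after 24 h with iron-loaded lipocalin-2 (hLcn-2). The genes were chosen by name as MT1E, MT1F, MT1G, MT1M, MT1X, MT2A, MTF1 and SLC30A1. Of these 8 genes, 6 had a row among the 16782 genes of the deposited table, and MT1G and MT1M were not analysed here. All 6 passed the filter on low values, as did 15593 genes in all. RNA came from 4 control samples without hLcn-2 and from 4 samples stimulated with holo Lcn-2 at 5 µg/mL, and both groups had been serum starved for 24 h before. The hLcn-2 was recombinant human protein made in bacteria and loaded with iron-catechol. The samples are numbered N1 to N4 in each group, and the labels do not say whether they came from separate cultures, so that p-values measure the spread between these samples, which may be technical. The data describe 1 cell line.

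Metallothioneins are small proteins rich in cysteine that bind zinc and copper in the cytosol. When free zinc rises, the zinc finger factor MTF1 enters the nucleus, binds metal response elements in the promoters of metallothionein genes and of SLC30A1, and raises their transcription. SLC30A1 (ZnT1) then carries zinc out across the plasma membrane. In the kidney, metallothioneins of the proximal tubule are best known for holding cadmium. Whether an iron carrier such as hLcn-2 moves the genes of this zinc circuit is what the comparison asks.

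MTF1 acts through metal response elements, so the 250 bases before the start of each gene are printed for the members that RefSeq's promoter table (GRCh38.p14) holds, 5′ to 3′ on the strand of the gene. Capitals mark the core of the metal response element, searched as TGCACNC and TGCGCNC on both strands. No matches overlapped.
MT2A: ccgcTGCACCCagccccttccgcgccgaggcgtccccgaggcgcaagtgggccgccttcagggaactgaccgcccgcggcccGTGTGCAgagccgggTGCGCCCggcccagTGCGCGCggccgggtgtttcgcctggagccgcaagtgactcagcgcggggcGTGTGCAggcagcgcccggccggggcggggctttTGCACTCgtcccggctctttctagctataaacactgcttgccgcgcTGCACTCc
MT1X: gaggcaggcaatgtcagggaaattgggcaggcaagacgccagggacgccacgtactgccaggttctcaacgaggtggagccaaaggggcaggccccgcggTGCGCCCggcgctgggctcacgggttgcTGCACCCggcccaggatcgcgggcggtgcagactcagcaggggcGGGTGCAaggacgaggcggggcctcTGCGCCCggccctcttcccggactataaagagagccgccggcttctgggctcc
SLC30A1: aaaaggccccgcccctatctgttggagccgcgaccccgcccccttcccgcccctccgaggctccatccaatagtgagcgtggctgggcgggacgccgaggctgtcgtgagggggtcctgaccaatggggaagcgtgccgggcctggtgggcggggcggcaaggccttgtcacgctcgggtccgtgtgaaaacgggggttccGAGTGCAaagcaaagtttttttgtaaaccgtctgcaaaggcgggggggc
MTF1: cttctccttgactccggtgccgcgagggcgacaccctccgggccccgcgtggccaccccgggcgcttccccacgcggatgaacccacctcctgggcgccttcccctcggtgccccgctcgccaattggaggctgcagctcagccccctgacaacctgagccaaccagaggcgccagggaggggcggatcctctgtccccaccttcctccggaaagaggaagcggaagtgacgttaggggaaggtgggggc

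The promoter of MT2A (chr16:56608334-56608583, plus strand) held 7 cores, a number that 0.0313% of the 35116 promoters in the table reach. MT1X (chr16:56682220-56682469, plus strand) held 4, a number reached by 0.37% of promoters. SLC30A1 (chr1:211579162-211579411, minus strand) held 1, on the opposite strand, and 24.8% of all promoters hold at least 1. The window of MTF1 itself (chr1:37859593-37859842, minus strand) held no match. A match describes these letters and does not show that MTF1 bound there in these cells. MT1E, MT1F, MT1G and MT1M had no entry in the table.

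**Figure D1:**
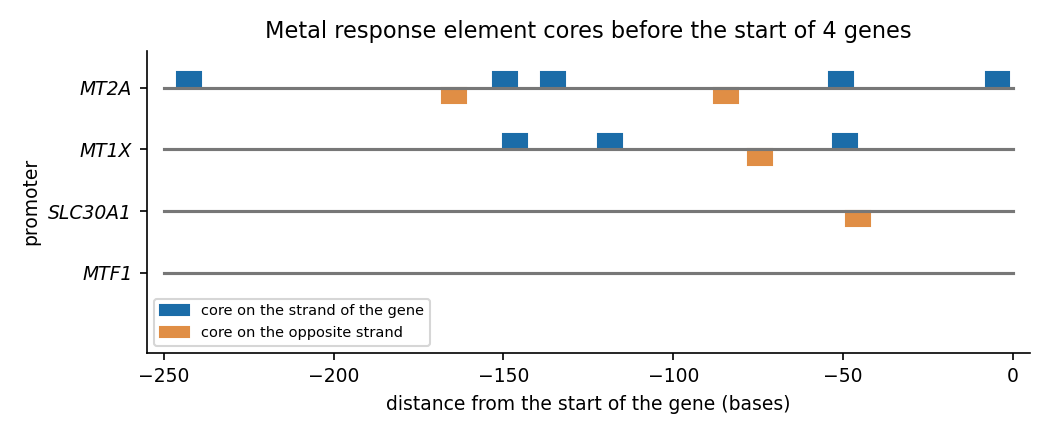
Positions of the metal response element cores in the 250 bases before the start of MT2A, MT1X, SLC30A1 and MTF1, with the distance from the start in bases on the x axis and each core drawn above the line if it lies on the strand of the gene and below it if on the opposite strand. The 7 cores of MT2A spread over the whole window, whereas SLC30A1 has 1 core and MTF1 none.

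The 4 metallothionein genes lie in a cluster on chromosome 16 of GRCh38. MT2A (ENSG00000125148) spans 56608584 to 56609497 on the plus strand with 3 exons, and its last exon, from 56609263 to 56609497, holds the 3′ end that the library kit reads. MT1E (ENSG00000169715) spans 56625475 to 56627112, MT1F (ENSG00000198417) 56657731 to 56660698 and MT1X (ENSG00000187193) 56682470 to 56684196, all on the plus strand. On chromosome 1, minus strand, SLC30A1 (ENSG00000170385) covers 211571568 to 211579161 with 2 exons. MTF1 (ENSG00000188786) is on that strand too, at 37809574 to 37859592, with 11 exons. The metallothioneins resemble each other, so the last 200 bases of each transcript were aligned to the genome. In this search no second place with at least 95% identity over 75 bases or more was found for MT1E, MT1F, MT1X, SLC30A1 or MTF1. The last exon of the pseudogene MT1L, however, matched a stretch within the last exon of MT1E with 96.7% identity over 92 bases. Some reads of MT1E may therefore not have been placed with certainty. For MT2A 1 such place was found, on chromosome 4, with 95.5% identity, so some of its reads may not have been placed with certainty. An exon of another gene on the same strand overlaps MT1X. For the other 5 members, no annotated exon of another gene overlaps the exons of the canonical transcript.

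In CAKI1 cells MT2A was by far the most abundant of the 4 metallothionein genes measured. The values are normalized counts close to reads scaled to a common library size (CPM), and the kit reads 1 fragment near the 3′ end of each transcript, so that levels of different genes can be compared without dividing by length. Reads shared with the near copy of MT2A, with MT1L for MT1E or with the gene overlapping MT1X may be missing or misplaced. Their part in the levels, the order of the genes and the shares below was not tested. Over the 8 samples MT2A averaged 245 CPM, more than 95.8% of the genes in the table. SLC30A1 averaged 55.7 CPM and MTF1 54.1 CPM. MT1E averaged 15.6, MT1F 12.2 and MT1X 2.33 CPM. MT2A was above SLC30A1 in 8 of 8 samples, MTF1 above MT1E in 8 of 8, and MT1F above MT1X in 8 of 8. SLC30A1 and MTF1 could not be ordered, since SLC30A1 was the higher of the pair in 4 of 8 samples. MT1E was above MT1F in 7 of 8 samples, the exception being control 4, where the values rest on 11 and 13 reads. MT2A made up between 83.1% and 92.9% of the summed value of the 4 metallothionein genes.

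The samples held between 1501563 (control 4) and 13953090 reads (control 1), so that 1 read was worth from 0.0704 to 0.658 CPM. Samples with number 3 stood apart in the share of reads from the mitochondrial genome, with 12.7% in control 3 and 13.8% in hLcn-2 sample 3 against 7.37% to 8.83% in the other 6. Of 8 markers of renal epithelial carcinoma cells 7 had a row, among them PAX8 (201 to 245 CPM) and VIM (1302 to 2181 CPM), while PAX2 was low (1.32 to 5.29 CPM) and CA9 was not analysed here. The summed marker level was 1995 to 2899 CPM in controls and 2327 to 3084 CPM after hLcn-2. CD14, the 1 of 4 leukocyte markers with a row, and PDGFRB, the 1 of 3 fibroblast markers with a row, did not exceed 1.59 and 1.83 CPM. CD14 was listed at 0 in hLcn-2 sample 3, and PDGFRB in control 4 and in hLcn-2 samples 3 and 4. The 3 endothelial markers were not analysed here. In bulk RNA, fewer cells of a type and less RNA per cell cannot be told apart.

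The metallothioneins and SLC30A1 did not pass the test for a difference between hLcn-2-treated and control cells. With limma on log2(normalized count + 1), two-sided and adjusted over all genes by the Benjamini-Hochberg method, 0 of the 6 members had an adjusted p-value under 0.05 and 0 had an unadjusted one under 0.05. Over all genes limma called 0% at the adjusted threshold and 2.28% at the unadjusted one. Because the groups share the numbers 1 to 4, the fit was repeated with the replicate number as a block, which called 0.282% of all genes and again 0 members, with 0 members and 12.2% of genes at an unadjusted p-value under 0.05. Of the 6 members 1 had a log2 fold change above 0 and 5 below, with a median of -0.057 against 0.00083 over all genes. The quasi-likelihood test of edgeR and the Wald test of DESeq2, on whole reads recovered from the values, called 0 members without the block and 0 with it, where they called 1.49% and 1.16% of all genes with the block. DESeq2 with the block gave no adjusted p-value for MT1X, so it could not call that gene. At an unadjusted p-value under 0.05 edgeR and DESeq2 too had 0 members, against 2.08% and 1.82% of all genes without the block and 13.4% and 7.38% with it. No member separated the groups without overlap, as 1.88% of genes did (0.891% higher and 0.988% lower after hLcn-2, or 139 and 154 genes, against 103 and 199 under plain scaling to the library total), and no member moved in the same direction in all 4 same-numbered pairs, as 20.8% of genes did (9.93% higher and 10.9% lower).

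**Figure D2:**
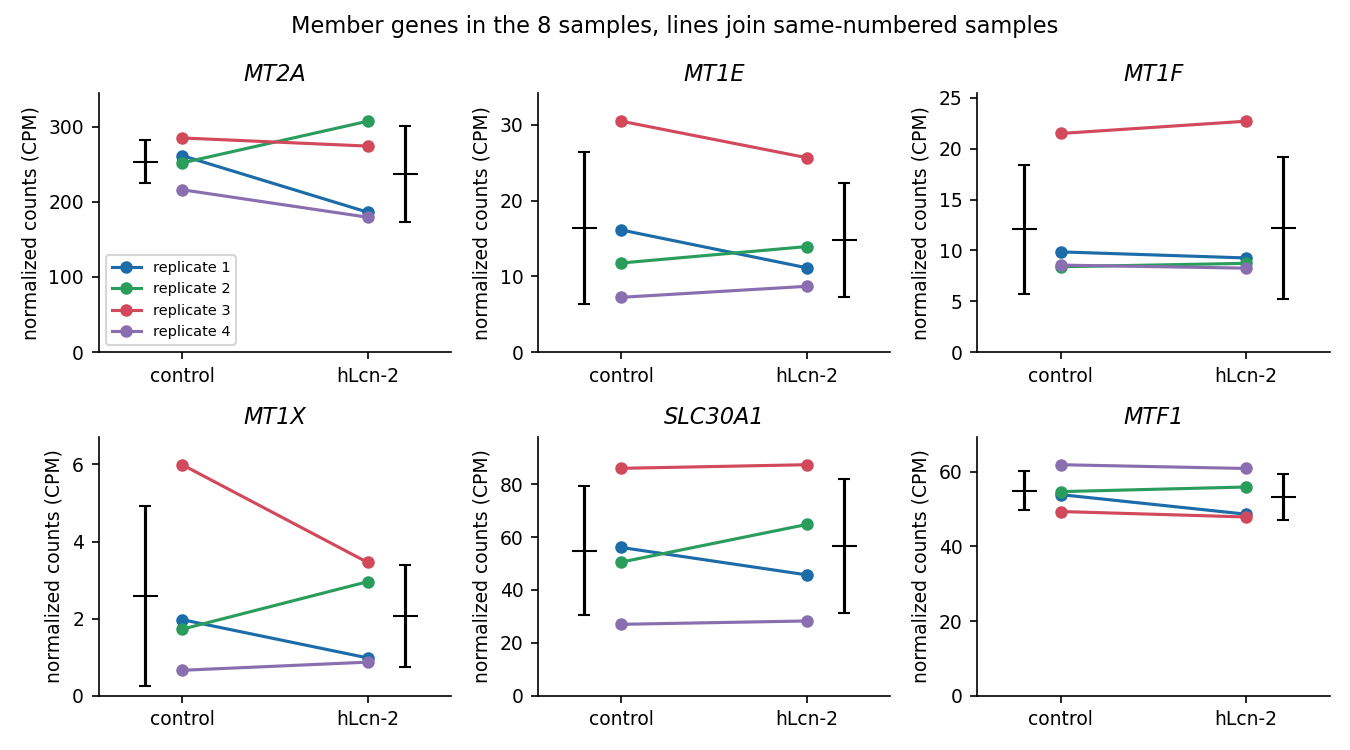
Normalized counts (CPM, linear axis from 0) of the 6 members in control and hLcn-2 samples, each line joining the control and the hLcn-2 sample with the same replicate number, with the group mean ± SD (n = 4) in black beside the points. The groups overlap in every panel, and for MT1E, MT1F, MT1X and SLC30A1 both samples of number 3 lie above the other 6.

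MT2A, the most abundant of the 4 metallothionein genes measured, had 261, 252, 285 and 216 CPM in controls 1 to 4 and 186, 307, 274 and 179 CPM in hLcn-2 samples 1 to 4. The hLcn-2 samples held both the highest and the 2 lowest values, and the groups overlapped. Their means were 253 ± 28.6 CPM (SD, n = 4) and 237 ± 63.8 CPM (SD, n = 4). The log2 fold change was -0.13 (standard error 0.18), with a 95% confidence interval from -0.53 to 0.27 and an adjusted p-value of 0.9999 in limma. With the replicate block the interval narrowed to -0.36 to 0.099 (adjusted p = 0.673 in limma), which as a fold is 0.779 to 1.07. Within the pairs MT2A was lower after hLcn-2 by 0.49, 0.056 and 0.27 on the log2 scale for numbers 1, 3 and 4, and higher by 0.29 for number 2. Between 328 and 3711 reads stood behind each value.

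SLC30A1, the exporter at the plasma membrane, had 56.1, 50.6, 86.0 and 27.0 CPM in controls 1 to 4 and 45.7, 64.8, 87.4 and 28.3 CPM in hLcn-2 samples 1 to 4. In both groups number 3 was the highest and number 4 the lowest sample. The means of 54.9 ± 24.3 and 56.5 ± 25.4 CPM (SD, n = 4 each) differed by far less than their spread. The log2 fold change was 0.037 (standard error 0.36, 95% confidence interval -0.75 to 0.83, adjusted p = 0.9999 in limma). With the replicate block the standard error fell to 0.11 and the interval was -0.20 to 0.28, a fold of 0.868 to 1.21. SLC30A1 was higher after hLcn-2 in 3 of 4 pairs, of which numbers 3 and 4 differed by 0.022 and 0.064.

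MTF1, the regulator, was the steadiest of the 6, its highest sample being 1.29-fold its lowest. It had 53.9, 54.7, 49.4 and 61.9 CPM in controls 1 to 4 and 48.6, 55.9, 47.9 and 60.9 CPM in hLcn-2 samples 1 to 4. The coefficient of variation was 9.44% in controls and 11.6% after hLcn-2. Its log2 fold change was -0.045 (standard error 0.14, 95% confidence interval -0.35 to 0.26, adjusted p = 0.9999 in limma). With the replicate block the interval was -0.25 to 0.16 (adjusted p = 0.885 in limma). MTF1 protein is regulated by zinc binding and by entry into the nucleus, which mRNA counts do not show.

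The smaller metallothionein genes were likewise without a difference past the test. MT1E had 16.1, 11.8, 30.5 and 7.24 CPM in controls 1 to 4 and 11.1, 13.9, 25.7 and 8.70 CPM in hLcn-2 samples 1 to 4, a log2 fold change of -0.069 (standard error 0.40). MT1F had 9.86, 8.40, 21.5 and 8.56 CPM in controls and 9.26, 8.73, 22.7 and 8.26 CPM after hLcn-2. Its same-numbered samples were nearly equal, with differences between -0.082 and 0.075 on the log2 scale and a log2 fold change of -0.00042 (standard error 0.36). Without the block, both intervals still allow changes of 0.78 or more in either direction on the log2 scale. With the block the interval was -0.42 to 0.29 for MT1E and -0.33 to 0.33 for MT1F.

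MT1X had 1.97, 1.73, 5.99 and 0.658 CPM in controls 1 to 4 and 0.980, 2.96, 3.46 and 0.870 CPM in hLcn-2 samples 1 to 4. These values rest on 1 to 34 reads, and 3 reads were worth 1.98 CPM in control 4, so that its value there lies below what the depth can show. The log2 fold change was -0.13 (standard error 0.44, 95% confidence interval -1.09 to 0.82), or -0.70 to 0.44 with the replicate block, and the adjusted p-value was 0.9999 in limma and 0.884 with the block. An exact permutation test, two-sided, has 70 regroupings here and cannot go under p = 0.0286. Its p-values for the 6 members lay between 0.571 (MT2A) and 1 (MT1F).

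**Figure D3:**
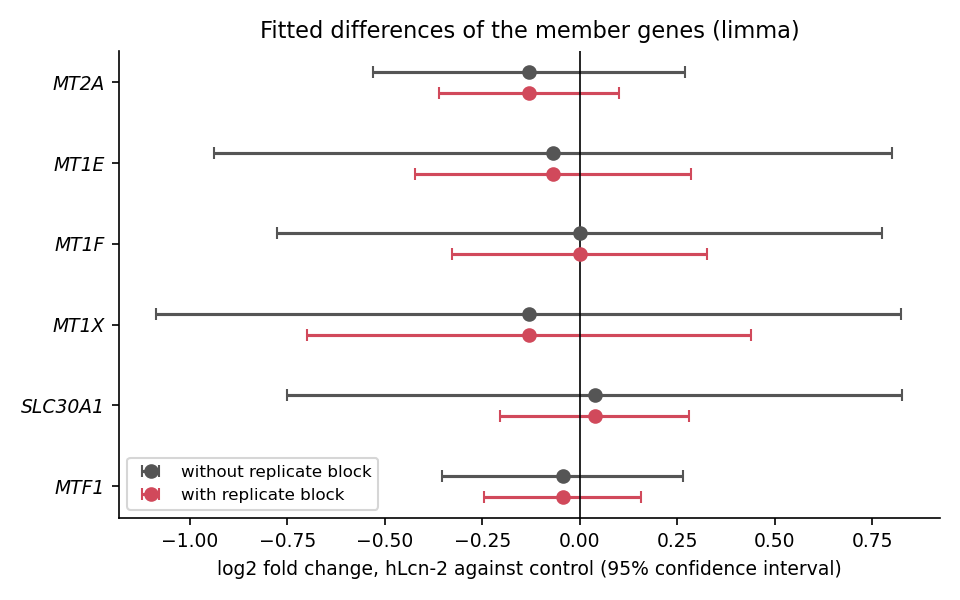
Log2 fold change of the 6 members between hLcn-2-treated and control cells with 95% confidence intervals from limma, without (grey) and with (red) the replicate number as a block. All intervals include 0, and with the block they are narrower, for SLC30A1 -0.20 to 0.28 in place of -0.75 to 0.83.

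Most members varied with the replicate number. A limma F-test of the replicate number, with the treatment in the fit, gave adjusted p-values of 0.000103 for SLC30A1, 0.00121 for MT1E, 0.00164 for MT1F, 0.0228 for MT1X and 0.0442 for MT2A, and of 0.220 for MTF1. This test was chosen after the values were seen. It called 5 of the 6 members and 27.4% of all genes, and the quasi-likelihood test of edgeR called 5 of the 6 members and 32.8% of all genes. Both samples of number 3 were above the other 6 for MT1E, MT1F, MT1X and SLC30A1, which was the case for 13.7% of genes. Their mean was 2.44-fold (MT1E), 2.50-fold (MT1F), 3.09-fold (MT1X) and 1.91-fold (SLC30A1) that of the other 6 samples. Both samples of number 4 were below the other 6 for MT1E and SLC30A1, as for 8.1% of genes, though MT1E had only 11 reads in control 4. The values of MT1X had the same order, but with 1 read in control 4 its place there is not shown. MTF1, which the F-test did not call, had both samples of number 4 above the other 6 (61.9 CPM in control 4 and 60.9 CPM in hLcn-2 sample 4). The share of all genes with that order was not counted. Without number 3, the F-test called 1 member, SLC30A1 (adjusted p = 0.0177), and 886 genes in place of 4272. Samples with number 3 also had the highest mitochondrial share, and control 4 was the shallowest library. The part of either in these differences was not tested.

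**Figure D4:**
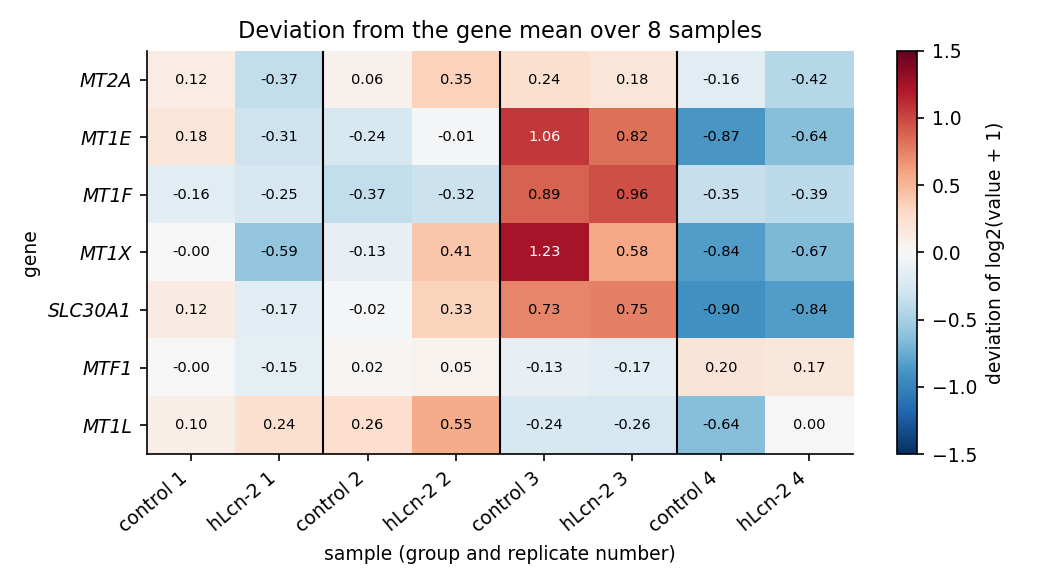
Deviation of log2(value + 1) from the mean of each gene over the 8 samples, for the 6 members and the pseudogene MT1L, with same-numbered control and hLcn-2 samples side by side between black lines. MT1E, MT1F, MT1X and SLC30A1 are high in both samples of number 3, by 0.58 to 1.23, and MT1E and SLC30A1 are low in both samples of number 4 (in control 4 MT1E rests on 11 reads and MT1X on 1 read), whereas MTF1 varies by at most 0.20.

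Across the 8 samples SLC30A1 was correlated with each of the 4 metallothionein genes. The Pearson correlation of its log2 values was 0.94 with MT1E, 0.92 with MT1X, 0.79 with MT2A and 0.77 with MT1F. Among the metallothionein genes the correlation ranged from 0.48 (MT2A and MT1F) to 0.94 (MT1E and MT1X). The correlation of MTF1 mRNA was -0.81 with SLC30A1, -0.78 with MT1E, -0.71 with MT1F, -0.62 with MT1X and -0.33 with MT2A. Without number 3 these values were -0.65, -0.61, -0.62, -0.29 and -0.052. The 8 values form 4 same-numbered pairs, so these are descriptions of few independent points. Those of MT1X rest on 1 to 34 reads per sample. How often other pairs of genes reach such correlations was not counted. Without the samples of number 3, SLC30A1 had 0.94 with MT1E, 0.91 with MT1X, 0.76 with MT2A and 0.51 with MT1F over 6 samples, and MT1F had 0.66 with MT1E, 0.28 with MT1X and 0.21 with MT2A.

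Of 9000 other genes with a mean of at least 10 CPM, those closest to the summed metallothionein value over the 8 samples were MAFF (Pearson r = 0.95), VPS41 (0.93), NQO1, INTS6 and SNX16 (0.91 each). MAFF encodes a small MAF transcription factor and NQO1 a quinone reductase that is a classic target of NRF2. MAFF had 15.8, 16.4, 17.8 and 12.5 CPM in controls 1 to 4 and 9.17, 17.3, 15.8 and 8.70 CPM in hLcn-2 samples 1 to 4. As in MT2A, hLcn-2 samples 1 and 4 were the 2 lowest. The genes were picked for this likeness, so their correlations support nothing further.

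One further metallothionein row was present, the transcribed pseudogene MT1L (ENSG00000260549), which lies between MT2A and MT1E on chromosome 16 from 56617563 to 56618680. MT1L had 16.1, 18.1, 12.5 and 9.22 CPM in controls 1 to 4 and 17.8, 22.4, 12.3 and 15.0 CPM in hLcn-2 samples 1 to 4. Unlike MT1E, MT1F, MT1X and SLC30A1, MT1L had both samples of number 3 under its mean. Its correlation with the members lay between -0.39 and 0.22 over the 8 samples. Without number 3, over 6 samples, it was 0.83 with SLC30A1, 0.78 with MT1X, 0.75 with MT1E, 0.44 with MT2A, 0.17 with MT1F and -0.60 with MTF1, so the low values rest on the samples of number 3. The log2 fold change was 0.27 (standard error 0.25, adjusted p = 0.9999 in limma and 0.528 with the replicate block). The last exon of MT1L has 3 near copies in the genome, the closest of 96.7% identity over 92 bases within MT1E, and exons of another gene overlap it, so reads may be split between them. The other 13 metallothionein genes and pseudogenes listed were not analysed here.

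The SLC30A family carries zinc out of the cytosol, in many cases into organelles or vesicles, though single members have other routes or metals. Of 9 family members listed besides SLC30A1, 6 were tested, and 5 were higher and 1 lower after hLcn-2, with a median log2 fold change of 0.21 against 0.00083 over all genes. Limma called 0 of them with or without the block. At an unadjusted p-value under 0.05 it had 1 without the block and 3 with it, against 2.28% and 12.2% of all genes. DESeq2 called 0 with the block, where not all of the 6 had an adjusted p-value. The test of edgeR with the block, which called 1.49% of all genes, called 1. That gene was SLC30A7, which supplies zinc to the Golgi apparatus. It had 41.4, 52.4, 55.0 and 36.2 CPM in controls 1 to 4 and 64.1, 62.8, 66.2 and 50.01 CPM in hLcn-2 samples 1 to 4. The groups overlapped, because hLcn-2 sample 4 was below controls 2 and 3, but SLC30A7 was higher in each of the 4 pairs. Its log2 fold change was 0.40 (standard error 0.17 in limma), with adjusted p-values of 0.9999 in limma, 0.125 in limma with the block, 0.0433 in edgeR with the block and 0.0824 in DESeq2 with the block.

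SLC30A5 and SLC30A6, which form a complex in the early secretory pathway, were also higher in 4 of 4 pairs, as were 9.93% of all genes. SLC30A5 had 52.7 ± 7.40 CPM in controls and 66.4 ± 10.6 CPM after hLcn-2 (SD, n = 4 each), with adjusted p-values in limma of 0.9999 without and 0.219 with the block. SLC30A6, named here after its values were seen, had 28.4 ± 4.32 and 34.2 ± 4.21 CPM (SD, n = 4 each; adjusted p = 0.371 in limma with the block). SLC30A9 had 55.8 ± 12.3 and 55.2 ± 11.1 CPM (SD, n = 4 each), and was named after its values were seen as well. No test compared these exporters with SLC30A1.

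Zinc importers of the SLC39A family bring zinc into the cytosol. Of 14 listed, 11 were tested, with 8 higher and 3 lower and a median log2 fold change of 0.088. Limma called 0 in either fit, and 0 (no block) and 2 (block) had an unadjusted p-value under 0.05, against 2.28% and 12.2% of all genes. The tests of edgeR and DESeq2 called 0 with or without the block. In DESeq2 with the block, not all of the 11 had an adjusted p-value. SLC39A6 was the most abundant, with 467 ± 35.4 CPM in controls and 505 ± 29.6 CPM after hLcn-2 (SD, n = 4 each). SLC39A14, which also carries iron, had 120, 139, 107 and 101 CPM in controls 1 to 4 and 157, 161, 122 and 110 CPM in hLcn-2 samples 1 to 4. It was higher in 4 of 4 pairs, as were 9.93% of all genes (log2 fold change 0.22, standard error 0.16, adjusted p = 0.9999 in limma and 0.286 with the block).

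**Figure D5:**
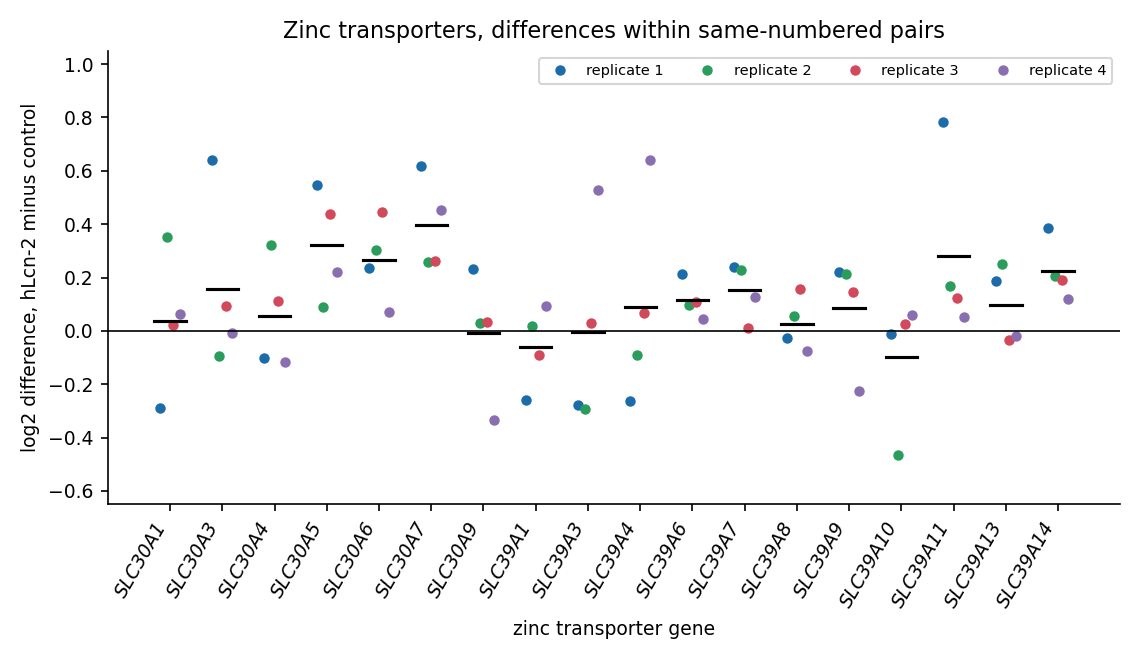
Log2 difference between the hLcn-2 and the control sample of each number (dots, coloured by replicate number) for the 18 zinc transporter genes tested, with the mean of the 4 differences as a black bar. SLC30A1 lies around 0 with differences on both sides. All 4 dots are above 0 for SLC30A5, SLC30A6, SLC30A7, SLC39A6, SLC39A7, SLC39A11 and SLC39A14, as for 9.93% of all genes.

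Other genes reported as MTF1 targets were listed as well. Of 6, 5 were tested, 3 higher and 2 lower, with a median log2 fold change of 0.15, and limma, edgeR and DESeq2 called 0 of them with or without the block (0 at an unadjusted p-value under 0.05 in limma in either fit). Not all of the 5 had an adjusted p-value in DESeq2 with the block. NDRG1 had 602 ± 132 CPM in controls and 553 ± 136 CPM after hLcn-2, and GCLC, the catalytic subunit of glutathione synthesis, 73.3 ± 8.14 and 81.9 ± 11.5 CPM (SD, n = 4 each). SLC39A10, an importer that MTF1 is known to repress, had 217, 238, 88.8 and 248 CPM in controls 1 to 4 and 215, 172, 90.3 and 258 CPM in hLcn-2 samples 1 to 4. Both samples of number 3 were its lowest, where SLC30A1, MT1E, MT1F and MT1X were at their highest. The share of all genes lowest in both samples of number 3 was not counted, and the limma F-test of the replicate number called 27.4% of all genes. Whether MTF1 had a part in this order was not tested. SLC39A10 was singled out after its values were seen.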

How the data were processed

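RNA of 4 control and 4 hLcn-2 samples was sequenced from QuantSeq 3′ libraries with UMI (75 cycles, single-end). For the counts, the authors used STAR on GRCh38, kept 1 read per UMI and ran HTSeq; tool versions and strand setting are not given in the sources used here. The deposited values are a scaled signal, normalized counts close to CPM, made of whole multiples of 1 read: 100% of 134256 values were whole within 0.01 reads. They were tested as log2(value + 1) with limma 3.58.1 (intensity trend) in R 4.3.3 after a filter (1 CPM or more in 2 or more samples), although the study's methods name edgeR. The recovered reads went into DESeq2 1.42.0 and edgeR 4.0.16 as alternatives. The models were tested on simulated data, which held no effect of the replicate number and so do not show how the models handle it.

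Same-numbered samples deviated together (correlations across genes of 0.31 to 0.61), so the numbers pair the samples. The members and lists were chosen with earlier results of these data known. Named are the members, their family, the list genes called by a test or else most abundant or of smallest p-value, the cell type markers, and the 5 genes closest to the summed metallothionein value. Gene models come from GENCODE 44, alignments from blastn 2.17.0. One decimal comma in the table was read as a point. Intervals reflect the spread between samples, and read numbers limit only counting error.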

Additional observations from a re-analysis of the deposited data

Results flagged for a closer look

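MT1F had 1 sample far from the other 3 in each group, the sample of number 3 both times. Control 3 had 21.5 CPM (122 reads), with a gap to the next sample of 0.889 of the range of the controls. The hLcn-2 sample 3 had 22.7 CPM (46 reads), with a gap of 0.931 of the range. Chance sets apart about 1 in 20 groups, and 14 were examined (6 members and MT1L). Same-numbered samples deviated together, so both values, from 1 gene and 1 number, do not count as separate findings. The mitochondrial share was also highest in both samples of number 3, and its part in these values was not tested.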

How the results depend on the processing

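No alternative called a member between hLcn-2 and control, though DESeq2 with the block gave MT1X no adjusted p-value. All other alternatives without the replicate block called 0 genes. With the block, limma called 44 genes (13, 3, 0 and 54 without number 1, 2, 3 and 4), edgeR 233 and DESeq2 181. With 1 pair left out, 1 member, MT2A, had an unadjusted p-value under 0.05 in limma with the block (0.0275, without number 2; adjusted 0.514). MT2A was lower under every alternative run. The fold change of MT1F was above 0 with pseudocount 5 (0.0021), median-ratio size factors (0.00081), edgeR with the block (0.013) and DESeq2 with the block (0.0047). With 1 sample left out, log2 fold changes ranged from -0.37 to 0.27 for MT1E, -0.32 to 0.30 for MT1F, -0.43 to 0.26 for MT1X, -0.26 to 0.32 for SLC30A1, -0.11 to 0.013 for MTF1 and -0.27 to -0.012 for MT2A. With a pair left out and the block, they ranged from -0.17 to 0.074 for MT1E, -0.026 to 0.027 for MT1F (0.015 without number 4), -0.35 to 0.042 for MT1X (0.020 without number 1) and -0.068 to 0.15 for SLC30A1. The F-test of the replicate number called 886 to 5040 genes and 1 to 5 members with 1 number left out, the lowest without number 3; without number 2 it called 2662 genes.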

Other observations

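Further lists of genes that share inducers or metals with the metallothioneins were counted in the same fit. Of 12 copper handling genes 11 were tested, 4 higher and 7 lower after hLcn-2, with a median log2 fold change of -0.0028. Limma called 0. At an unadjusted p-value under 0.05 it had 0 without the replicate block and 1 with it, against 2.28% and 12.2% of all genes. The tests of edgeR and DESeq2 called 0 with or without the block. Not all of the 11 had an adjusted p-value in DESeq2 with the block. SOD1, the copper and zinc superoxide dismutase, had 669 ± 97.4 CPM in controls and 613 ± 77.4 CPM after hLcn-2, and SCO2, a copper chaperone of cytochrome c oxidase, 13.9 ± 1.16 and 10.7 ± 3.51 CPM (SD, n = 4 each).

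Of 9 glucocorticoid-inducible genes, a response that also drives MT2A in many cells, 8 were tested, 3 higher and 5 lower, with a median log2 fold change of -0.053. Limma called 0 with or without the block. At an unadjusted p-value under 0.05 it had 1 without the block and 2 with it, against 2.28% and 12.2% of all genes. DESeq2 called 0, though with the block not all of the 8 had an adjusted p-value, and edgeR without the block called 0. With the block edgeR, which called 1.49% of all genes, called 1. That gene was KLF9, a zinc finger transcription factor, with 31.9, 50.1, 33.3 and 47.4 CPM in controls 1 to 4 and 24.7, 36.3, 21.7 and 33.3 CPM in hLcn-2 samples 1 to 4. In all 4 pairs KLF9 had the lower value after hLcn-2, as had 10.9% of all genes. Its difference was -0.48 on the log2 scale (adjusted p = 0.9999 in limma, 0.0865 in limma with the block, 0.0383 in edgeR with the block and 0.0599 in DESeq2 with the block). ERRFI1, the most abundant of the list, had 215 ± 49.2 and 169 ± 48.9 CPM (SD, n = 4 each). Of 10 metal- and heat-inducible stress genes 9 were tested, 3 higher and 6 lower, with a median log2 fold change of -0.12. Limma called 0. At an unadjusted p-value under 0.05 it had 0 without the block and 4 with it, against 2.28% and 12.2% of all genes. The tests of edgeR and DESeq2 called 0 with or without the block. TXNRD1, thioredoxin reductase, had 1132 ± 148 and 1186 ± 113 CPM, and HSPA1A, an inducible HSP70, 176 ± 49.7 and 134 ± 18.3 CPM (SD, n = 4 each).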
